A study of Drosophila melanogaster with 6 samples.

Results

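The genes described here encode the translation initiation, elongation and release factors of Drosophila melanogaster, measured as poly(A) RNA in dissected ovaries. They are the 53 genes, of 17559 listed per library, whose FlyBase symbol starts with eIF, eEF or eRF. The rule passes over eIF4A3, and 1 such gene on chromosome 4 was left out. The mutant group (n = 3) had the D1 allele of RanBP9 over BSC469, a chromosomal deficiency. The control group (n = 3) had a chromosome of the laboratory strain w1118 over that deficiency. Both groups therefore shared the BSC469 chromosome, and all flies were kept at 25 °C. RanBP9 is an older name of Ipo9, the gene of Importin-9, a carrier known to bring actin into the nucleus, and the series asks what less actin in the nucleus does to transcription. The age of the females is not given in the labels, nor whether the numbered replicates came from separate crosses or dissections, so p-values measure the spread between these libraries, which may be technical.

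Translation starts when eIF2 carries the initiator tRNA to the small ribosomal subunit, which eIF3, eIF1, eIF1A and eIF5 prepare, while the eIF4 proteins bind the cap of the mRNA and unwind its leader. The eIF2B complex recharges eIF2 with GTP, eIF5B joins the large subunit, and eEF1 and eEF2 then drive each step of elongation until eRF1 and eRF3 release the finished chain. Nurse cells and follicle cells of the fly ovary make large amounts of ribosomes and of this machinery for the egg. The fly genome also holds several extra copies of single factors, and some of them, such as eIF4E3 and eIF4G2, are known for their roles in the male germline.

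The 6 libraries held 21583524 to 26483578 counted reads each. Levels are given as CPM, in which counts are set against library totals corrected with TMM factors, or as CPM per kb of exon where genes are compared with each other. Ipo9 itself was at 98.3, 91.1 and 92.0 CPM in mutant ovaries, against 118, 155 and 116 CPM in control ovaries, which was a log2 fold change of −0.47 (SE 0.12, edgeR adjusted p = 0.0544) with control replicate 2 above the other controls. Tested genes within 1 Mb of Ipo9 on chromosome arm 3R were raised in control replicate 2 by a median of 0.07 on the log2 scale over the other controls. Over the genes within 1 Mb of each translation factor gene on that arm the same median lay between −0.02 and 0.00. The summed level of 7 germline markers was 3618 to 3834 CPM in mutant and 3618 to 3815 CPM in control ovaries, with aub called higher and vas and bam lower. The summed level of 6 follicle cell markers was 16255 to 19367 CPM in mutant and 21669 to 25654 CPM in control ovaries. Cp38 and Cp36 of these were called lower (log2 fold changes −0.61 and −0.58). Vm26Aa was lower in each mutant library without being called (−0.35, edgeR adjusted p = 0.0599). For tj, Yp1 and Yp2 the groups overlapped, with log2 fold changes of 0.25, −0.08 and −0.04, so the list had no common shift. Without control replicate 1 none of the 5 called markers kept its call (edgeR adjusted p 0.0922 for aub, 0.137 for vas, 0.106 for bam, 0.0508 for Cp38 and 0.0716 for Cp36). The part of these shifts in the translation factor results was not tested. In whole ovaries, fewer cells of a type and less RNA per cell cannot be told apart.

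Mutant ovaries gave slightly more of their mRNA reads to translation factors. The 53 genes took 3.98%, 3.97% and 3.90% of all counts in mutant replicates 1 to 3, against 3.63%, 3.68% and 3.62% in control replicates 1 to 3. The groups did not overlap. Without eEF1alpha1, the most abundant of them, the share was 2.54%, 2.54% and 2.52% in mutant and 2.34%, 2.37% and 2.33% in control ovaries, again without overlap. Together eEF1alpha1 and eEF2 made up 52.0% to 53.1% of the translation factor counts in mutant and 51.5% to 52.2% in control libraries. Neither gene was called, and all tested genes at 1000 CPM or more had a median log2 fold change of 0.11. Whether other sets of abundant genes gained a similar share was not tested.

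Per length, the 5 most abundant of these mRNAs were elongation factors. The highest was eEF1alpha1 (FBgn0000556 in the tables), which brings aminoacyl-tRNA to the ribosome, at 5764 ± 172 CPM per kb in mutant and 5271 ± 55.4 CPM per kb in control ovaries (mean ± SD, n = 3 each, as for all values of this form). It lies at 11891135 to 11895762 on the plus strand of arm 2R in the BDGP6 (dm6) build. A snoRNA gene is listed within its span on its strand and shares 0 exon bases with it in the annotation used here. Whether reads of that gene entered its count was not tested. The translocation GTPase eEF2 followed at 2130 ± 64.7 CPM per kb in mutant and 1932 ± 45.2 CPM per kb in control ovaries. Next came eEF5, the hypusine-bearing factor called eIF5A in other species, at 1883 ± 116 CPM per kb in mutant and 1784 ± 54.1 CPM per kb in control ovaries, whose ranges overlapped.

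Among the initiation factors, only the RNA helicase eIF4A, at 753 ± 14.2 CPM per kb in mutant and 691 ± 11.2 CPM per kb in control ovaries, came above the lowest subunit of the eEF1 exchange complex. That subunit, eEF1delta, was at 475 ± 20.4 CPM per kb in mutant and 471 ± 14.1 CPM per kb in control ovaries. eIF1, which guards start codon choice, was at 444 ± 16.9 CPM per kb in mutant and 405 ± 17.7 CPM per kb in control ovaries, and the cap-binding protein eIF4E1 was at 319 ± 5.78 CPM per kb in mutant and 339.7 ± 2.02 CPM per kb in control ovaries. The 13 tested eIF3 subunits lay close together, between 141 (eIF3j) and 294 (eIF3b) CPM per kb in mutant and between 129 and 296 in control ovaries, a 2.30-fold range in the controls. Neighbours in this order often differed by less than their spread, as eIF3a, eIF3h and eIF4B did in the controls at 190.0 ± 1.65, 188 ± 2.08 and 188 ± 15.2 CPM per kb.

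The 3 eIF2 subunits were at 135 to 298 CPM per kb in mutant and 127 to 294 in control ovaries. All 5 subunits of eIF2B, its exchange factor, were lower than any of them, at 29.3 to 48.2 CPM per kb in mutant and 27.7 to 46.9 in control ovaries. The release factors eRF1, which reads the stop codon, and eRF3, its partner GTPase, were nearly equal, at 135 ± 2.15 and 133 ± 5.44 CPM per kb in mutant and 126 ± 3.69 and 128 ± 2.47 CPM per kb in control ovaries. At the bottom stood eEFSec, the selenocysteine elongation factor, at 5.69 ± 0.23 CPM per kb in mutant and 5.76 ± 0.29 CPM per kb in control ovaries. eEF1alpha2, the lowest that was tested, was at 0.53 ± 0.33 CPM per kb in mutant and 0.61 ± 0.18 CPM per kb in control ovaries.

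**Figure D1:**
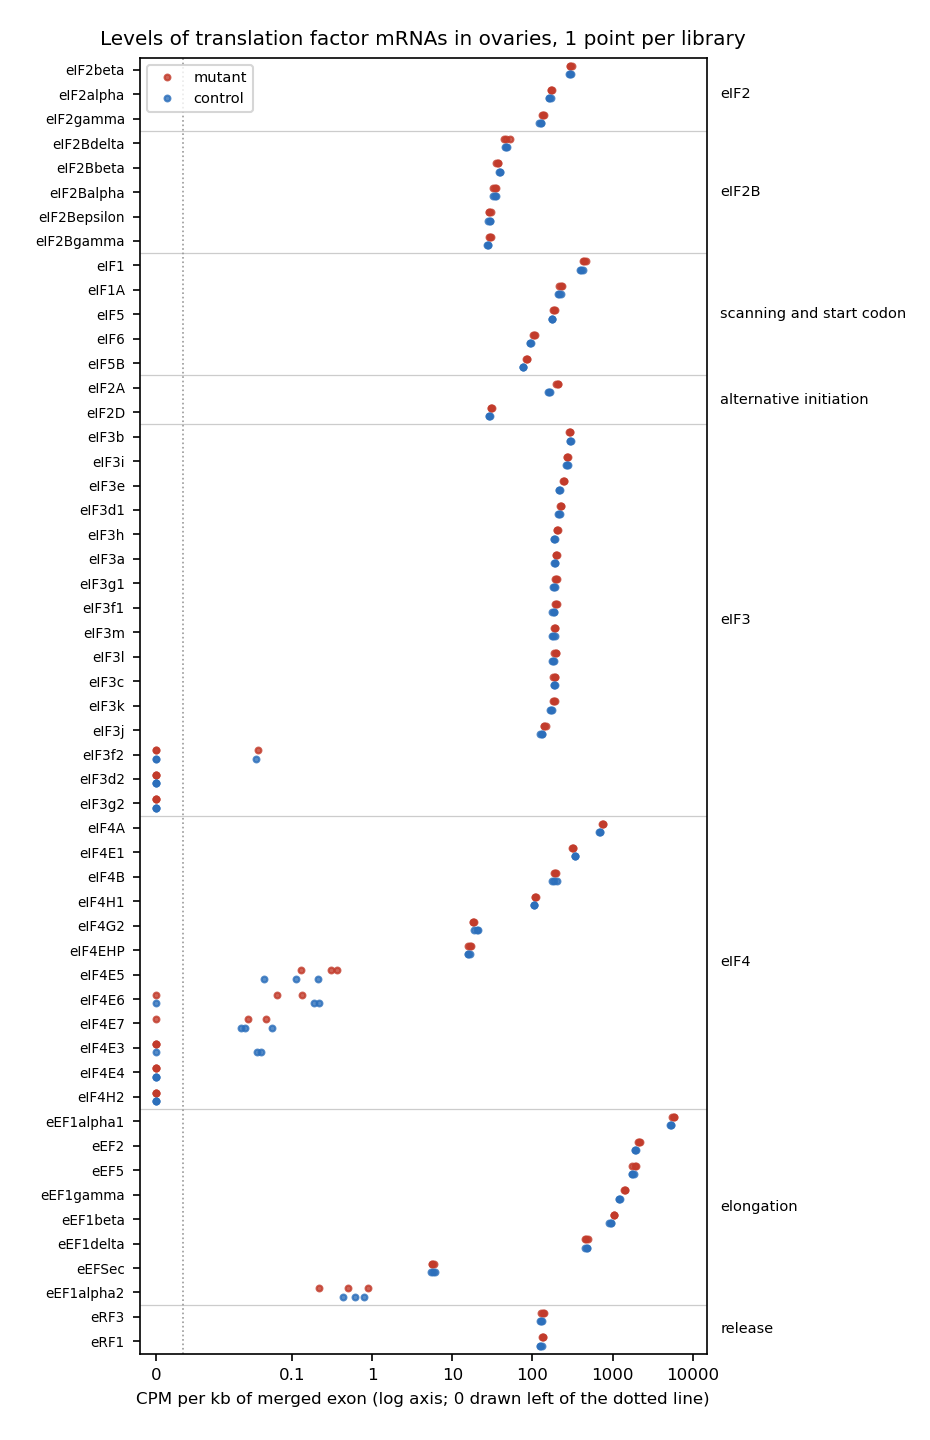
Level of each of the 53 translation factor genes in CPM per kb of merged exon on a log axis, 1 point per library, with mutant points above control points in each row and genes grouped by subcomplex. The elongation factors eEF1alpha1, eEF2, eEF5, eEF1gamma and eEF1beta lie to the right of every initiation factor, and the 9 untested paralogs lie at the far left, where points at 0 are drawn left of the dotted line.

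Of the 53 genes, 44 had enough counts to be tested (a filter on a minimum count of 10). Compared with control ovaries, 7 of the 44 were higher in mutant ovaries, 0 were lower and 37 did not pass the threshold (edgeR quasi-likelihood test, Benjamini-Hochberg adjusted p under 0.05 over all 8110 genes tested). Of all tested genes, 14.5% were called, 8.31% higher and 6.2% lower. The 7 called translation factor genes were 15.9% of those tested, so the share called was close to that of all genes, while the calls all had the same direction. At an unadjusted p under 0.05, 19 were higher and 3 lower, and the share of all genes under that p was not computed. DESeq2 called 11 higher and 1 lower (eIF4E1), where it called 1251 of the 8110 genes.

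The differences were small. The median log2 fold change of the 44 genes was 0.07, against 0.00 for all tested genes, and single values ran between −0.18 and 0.33. The estimate was positive for 38 genes and negative for 6, while 49.2% of all tested genes had a positive one. In mutant replicates 1 to 3 the median translation factor gene lay 0.07, 0.10 and 0.07 above the mean of the controls on the log2 scale, and in control replicates 1 to 3 it lay at −0.01, −0.02 and 0.02. The 3 mutant libraries were above the 3 control libraries for 23 genes and below them for 3, together 59.1%. Among all tested genes the groups did not overlap for 34.9%, with mutant libraries above for 18.4% and below for 16.5%.

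The share of genes called higher, 8.31% over all tested genes, rose with abundance in this comparison. Of the 2367 tested genes that averaged 100 CPM or more, 9.13% were called higher, and 7 of the 37 translation factor genes at that level were (18.9%), with a median log2 fold change of 0.09 against −0.02 for all genes at that level. At 300 CPM or more, 15.6% of 589 genes were called higher, as were 5 of 24 translation factor genes (20.8%). The median log2 fold change at that level was 0.07 for the factors and −0.01 for all genes. At 1000 CPM or more, 33.6% of 140 genes were called higher, as was 1 of 5 translation factor genes. There the median log2 fold change of all genes, 0.11, was close to the 0.13 of the 5 factors. The shares of all genes called lower were 6.80%, 7.81% and 5.71% at 100, 300 and 1000 CPM or more, with 0 translation factor genes lower.

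**Figure D2:**
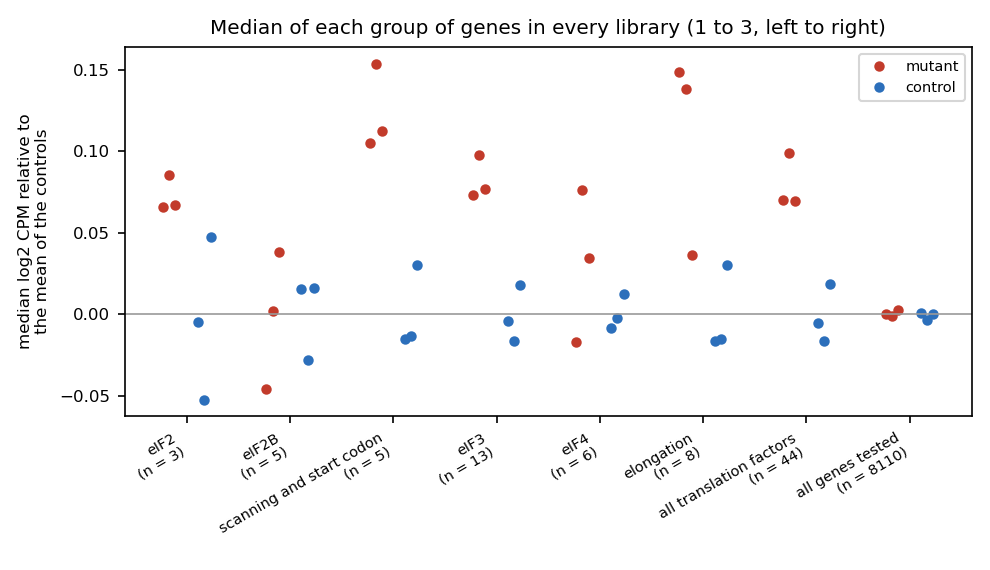
Median log2 CPM of each group of genes relative to the mean of the 3 controls, 1 point per library, with mutant libraries left of control libraries in each group and the number of tested genes under its name. For all 44 translation factors the mutant medians of 0.07, 0.10 and 0.07 lie above the control medians of −0.01, −0.02 and 0.02, while the medians of all tested genes lie at 0.

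The clearest difference was in eIF2A (FBgn0037135, 21824740 to 21827856 on the plus strand of arm 3L), a single protein that, as known mainly from yeast and mammals, can bring initiator tRNA to the ribosome by a route apart from eIF2 and is not a subunit of it. It was at 584.5, 582.6 and 558 CPM in mutant replicates 1 to 3, against 460.3, 464 and 447.7 CPM in control replicates 1 to 3. The groups were far apart relative to their spread, at 575 ± 14.6 CPM in mutant and 457 ± 8.58 CPM in control ovaries. The estimate was 0.33 on the log2 scale (SE 0.04, edgeR adjusted p = 6.03e-04), or 25.8% more in mutant than in control ovaries. eIF2D, another factor of non-canonical initiation and of ribosome recycling, did not pass the threshold, at 56.0, 55.6 and 57.0 CPM in mutant and 55.1, 53.6 and 52.3 CPM in control ovaries (log2 fold change 0.07, SE 0.04).

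The canonical eIF2 complex did not follow eIF2A past the threshold. Among its 3 subunits 0 were called, where 14.5% of all tested genes were. The log2 fold changes were 0.09 for eIF2alpha, whose phosphorylation is known to shut down initiation under stress, 0.02 for eIF2beta and 0.10 for the GTP-binding subunit eIF2gamma. For eIF2beta, the most abundant per length, the libraries were at 331, 347 and 332 CPM in mutant and 330.5, 320 and 345 CPM in control ovaries, and the groups overlapped. The mutant libraries of eIF2alpha and eIF2gamma lay above all of their control libraries. The annotation has eIF2gamma sharing 16.0% of its exon bases with Su(var)3-9 on the same strand, so its count is uncertain.

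Of the 5 eIF2B subunits 0 were called, where 14.5% of all tested genes were. There were 4 positive estimates and 1 negative estimate, with a median log2 fold change of 0.02. The regulatory subunit eIF2Bbeta was at 50.2, 49.8 and 47.1 CPM in mutant, below its 53.6, 52.2 and 53.9 CPM in control ovaries, without passing the threshold (log2 fold change −0.12, SE 0.05, edgeR adjusted p = 0.131). The catalytic subcomplex member eIF2Bgamma had the opposite order, at 47.7, 44.3 and 46.2 CPM in mutant and 42.1, 42.9 and 43.4 CPM in control ovaries (log2 fold change 0.11, SE 0.05, edgeR adjusted p = 0.185). For eIF2Bdelta, the most abundant, the groups overlapped, at 97.5, 102 and 115 CPM in mutant and 105, 97.6 and 103 CPM in control ovaries.

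Of the 5 factors of scanning, start codon choice and subunit joining, 2 were higher (40.0%, against 8.31% of all tested genes). All 5 estimates were positive, with a median of 0.13. eIF5B (FBgn0026259, 3428658 to 3460977 on the minus strand of 3L), the GTPase that joins the ribosomal subunits, was at 381, 376 and 367 CPM in mutant and 341, 338 and 338 CPM in control ovaries. Its log2 fold change was 0.14 (SE 0.04, edgeR adjusted p = 0.0272), or 10.5% more. eIF6 (FBgn0034915, 23849246 to 23850301 on the minus strand of 2R), which keeps the large ribosomal subunit from joining too early and takes part in making it, was at 111, 115 and 108 CPM in mutant and 98.9, 99.1 and 102 CPM in control ovaries. That was a log2 fold change of 0.16 (SE 0.04, edgeR adjusted p = 0.0309), or 11.4% more. Both genes had every mutant library above every control library, and eIF6, a single-exon gene, lies within the span of ytr on the same strand without sharing exon bases with it.

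The other 3 of this group were not called. eIF1 was at 296, 316 and 295 CPM in mutant and 265, 273 and 289 CPM in control ovaries, with groups that did not overlap (log2 fold change 0.13, SE 0.05, edgeR adjusted p = 0.0831). eIF5, which triggers GTP hydrolysis by eIF2, also had every mutant library above every control library (579, 622 and 604 CPM in mutant, 555, 561 and 561 CPM in control ovaries, edgeR adjusted p = 0.108). In the annotation 80.8% of its exon bases also belong to CG46312, a gene not analysed here, so its count is uncertain too. For eIF1A the groups overlapped.

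eIF3, the largest initiation factor, is a scaffold on the small ribosomal subunit, and 2 of its 13 tested subunits were higher in mutant ovaries. That was 15.4%, against 8.31% of all tested genes called higher and 14.5% called in either direction. eIF3e (FBgn0025582, 16785242 to 16786941 on the minus strand of 3L) was at 378, 377 and 363 CPM in mutant and 325, 327 and 340.0 CPM in control ovaries, a log2 fold change of 0.17 (SE 0.04, edgeR adjusted p = 0.0169) or 12.7% more. eIF3k (FBgn0034654, 21685283 to 21686201 on the plus strand of 2R) was at 156, 158 and 163.5 CPM in mutant and 144, 140.2 and 149 CPM in control ovaries, a log2 fold change of 0.14 (SE 0.04, edgeR adjusted p = 0.0473) or 10.2% more. For both subunits the groups did not overlap.

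The remaining eIF3 subunits had log2 fold changes between −0.01 and 0.14. Of the 13, the called ones included, 7 had every mutant library above every control library (53.8%, against 18.4% of all tested genes). The nearest to the threshold was eIF3h, at 309.6, 307.5 and 299.7 CPM in mutant and 284, 278 and 282 CPM in control ovaries (log2 fold change 0.12, SE 0.04, edgeR adjusted p = 0.0542). The core subunits eIF3b and eIF3c, conserved down to yeast, had estimates of −0.01 and 0.00 with SEs of 0.04, and that of eIF3c turned negative in 6 of 14 alternatives. Their libraries overlapped, with eIF3b at 792, 799.8 and 775 CPM in mutant and 780.2, 817 and 782 CPM in control ovaries. For eIF3a, another core subunit, the groups did not overlap, at 766, 774 and 783 CPM in mutant and 746, 738 and 734 CPM in control ovaries, a log2 fold change of 0.07 (SE 0.04, edgeR adjusted p = 0.263). Whether eIF3e and eIF3k differed from the core subunits in their response was not tested.

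**Figure D3:**
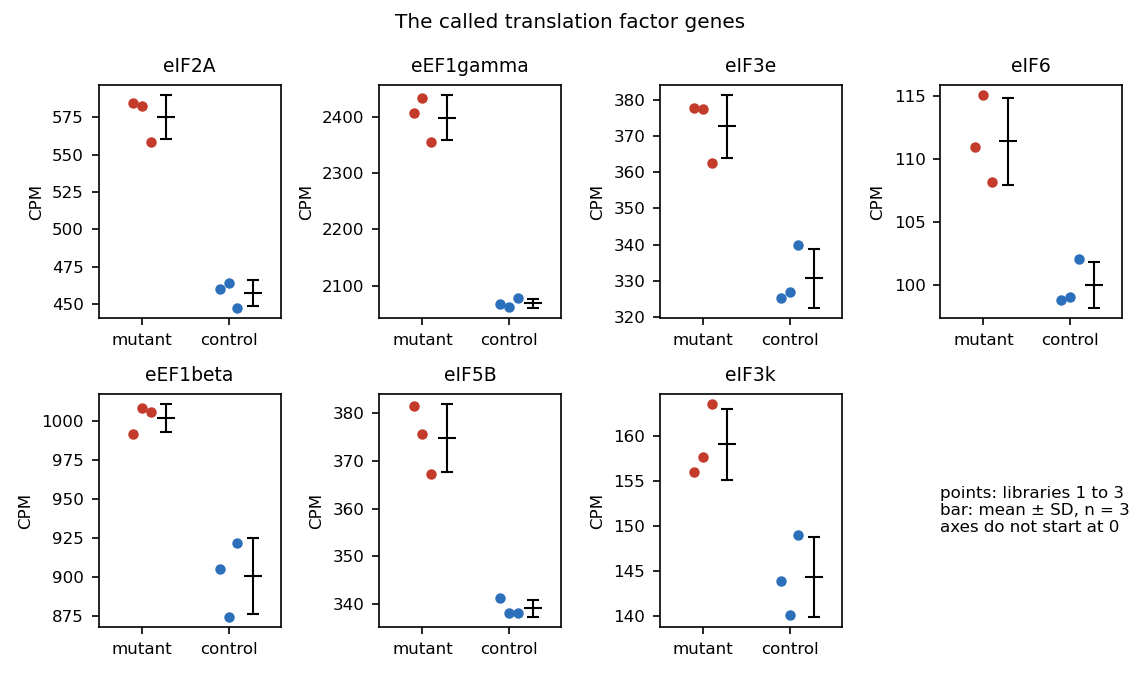
CPM of the 7 called translation factor genes in each library, with the 3 mutant points left of the 3 control points and the mean ± SD (n = 3) beside each, on axes that do not start at 0. In each panel the 3 mutant libraries lie above the 3 control libraries, with the widest gap relative to level in eIF2A at 575 ± 14.6 CPM in mutant and 457 ± 8.58 CPM in control ovaries.

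Among the eIF4 proteins, which bind the cap and unwind the mRNA, 0 of the 6 tested genes were called, against 14.5% of all tested genes. The median log2 fold change of the 6 was 0.04. They did not share a direction. eIF4A was at 1894, 1882 and 1828 CPM in mutant and 1684, 1724 and 1737 CPM in control ovaries, with the groups apart (log2 fold change 0.12, SE 0.04, edgeR adjusted p = 0.0613). eIF4H1, which helps the helicase, was at 473, 490.2 and 478 CPM in mutant and 460.1, 463 and 469 CPM in control ovaries, also without overlap (log2 fold change 0.05, SE 0.04). For eIF4B, another helper of the helicase, the groups overlapped, and its estimate was 0.03 on the log2 scale (SE 0.06).

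The cap-binding protein eIF4E1 was lower in each mutant library, at 697.5, 716 and 722 CPM, than in any control library, at 755, 758 and 764 CPM. Its log2 fold change of −0.09 (SE 0.04) did not pass the threshold in edgeR (adjusted p = 0.126) and did in DESeq2 (adjusted p = 0.0376), with a range of 0.0376 to 0.320 over the 14 alternatives. eIF4G2, a copy of the scaffold protein that links cap and ribosome and known for its role in fly spermatogenesis, had the same order, at 167, 168 and 163 CPM in mutant and 183, 191 and 169 CPM in control ovaries (log2 fold change −0.12, SE 0.05, edgeR adjusted p = 0.118). Without control replicate 3 its adjusted p was 0.0415, the lowest of 14 alternatives that reached up to 0.372. The gene shares 779 exon bases with CG33111 on the same strand, so its count is uncertain. Per length it was far below eIF4A, at 18.3 ± 0.30 CPM per kb in mutant and 19.9 ± 1.21 CPM per kb in control ovaries.

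In elongation, 2 of 8 tested genes were higher (25.0%, against 8.31% of all tested genes). Both encode subunits of the complex that recharges eEF1alpha with GTP. eEF1gamma (FBgn0029176, 29220172 to 29222109 on the plus strand of 3R), its scaffold, was at 2406, 2433 and 2355 CPM in mutant and 2067, 2063 and 2078 CPM in control ovaries. That was 0.21 on the log2 scale (SE 0.04, edgeR adjusted p = 0.00563), or 15.9% more. eEF1beta (FBgn0028737, 16868222 to 16869280 on the plus strand of 2R), a nucleotide exchange subunit, was at 992, 1008 and 1006 CPM in mutant and 905.5, 875 and 922 CPM in control ovaries, a log2 fold change of 0.15 (SE 0.04, edgeR adjusted p = 0.0275) or 11.2% more. The other exchange subunit, eEF1delta, was not called and its groups overlapped, at 426, 462 and 435 CPM in mutant and 442, 422 and 447 CPM in control ovaries (log2 fold change 0.01, SE 0.04). The difference between eEF1delta and the called subunits was not tested.

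The GTPases themselves came close to the threshold without passing it. eEF2 was at 6728, 6452 and 6344 CPM in mutant and 5831, 6064 and 5818 CPM in control ovaries (log2 fold change 0.14, SE 0.04, edgeR adjusted p = 0.0540). eEF1alpha1 was at 14500.1, 14389 and 13716 CPM in mutant and 12836, 13033 and 13097 CPM in control ovaries (log2 fold change 0.13, SE 0.04, edgeR adjusted p = 0.0672). For both genes every mutant library lay above every control library. DESeq2 called both, at adjusted p of 0.00466 for eEF2 and 0.00630 for eEF1alpha1, and so did edgeR without TMM factors, at 0.0279 and 0.0189. Over the 14 alternatives the adjusted p reached up to 0.212 for eEF2 and 0.295 for eEF1alpha1. A small RNA gene is listed within the span of each on its strand.

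For eEF5 and eEFSec the groups overlapped. eEF5 was at 1545, 1598 and 1416 CPM in mutant and 1415, 1414 and 1490.4 CPM in control ovaries, with mutant replicate 3 among the controls. The release factors eRF1 and eRF3 were not called, with log2 fold changes of 0.10 and 0.06 (SE 0.04 each). The mutant libraries of eRF1 lay above all of its control libraries, at 421, 427 and 414 CPM in mutant and 387, 387 and 407 CPM in control ovaries, and it shares 189 exon bases with CG5618 on the same strand, so its count is uncertain.

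**Figure D4:**
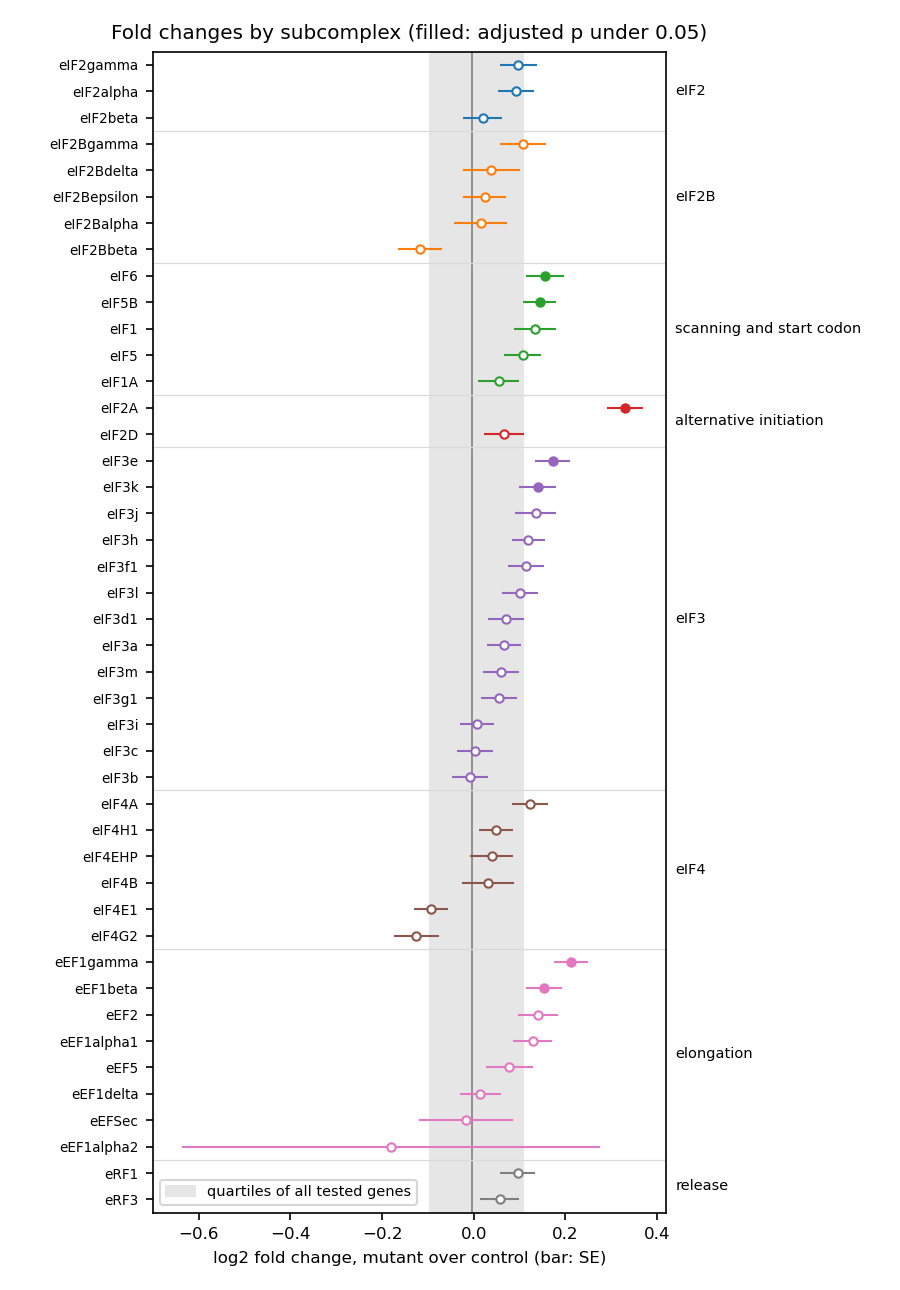
Log2 fold change, mutant over control, of the 44 tested translation factor genes with its standard error, grouped by subcomplex, with filled points for the 7 called genes and a grey band between the quartiles of all 8110 tested genes. The called genes run between 0.14 for eIF3k and 0.33 for eIF2A, and eEF1alpha2, with few counts, has the widest bar.

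How firmly each call stood depended on the gene. eIF2A kept its call in each of the 6 fits that left out 1 library, with adjusted p of at most 0.00561, and in all 14 alternatives run. eEF1gamma kept it in the same 6 fits, at 0.0397 or less, and in 13 of 14 alternatives, the exception being 0.0574 without both libraries numbered 2. The other 5 calls each ended without some library, and for all of them the weakest value came without control replicate 1 (edgeR adjusted p 0.0903 for eIF3e, 0.104 for eEF1beta, 0.0982 for eIF5B, 0.126 for eIF6 and 0.153 for eIF3k). eIF3e and eEF1beta also lost the call without mutant replicate 1 (0.0627 and 0.0682), mutant replicate 2 (0.0596 and 0.0809) or control replicate 2 (0.0501 and 0.0828). eIF5B and eIF6 kept theirs only without mutant replicate 3 (0.0220 and 0.0204), and eIF3k in none of the 6 fits. The direction of these 7 estimates was the same in all 14 alternatives. Without mutant replicate 3, 10 translation factor genes were called, adding eEF2 (0.0264), eEF1alpha1 (0.0210), eIF4A (0.0400) and eIF3h (0.0452) and losing eIF3k (0.0882). Among the other scalings, filters and tools on all 6 libraries, eIF3k missed the threshold with library totals alone (0.0611), with limma-voom (0.0518) and with relative log expression factors (0.0501).

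**Figure D5:**
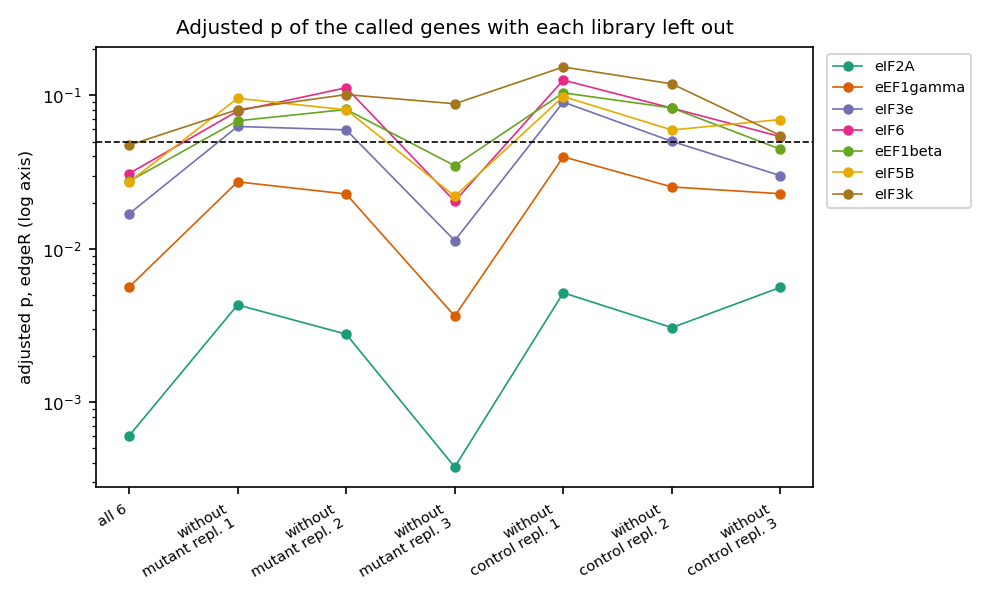
Adjusted p (edgeR, log axis) of the 7 called genes with all 6 libraries and with each library left out in turn, with the threshold of 0.05 dashed. eIF2A and eEF1gamma stay under the line throughout, at no more than 0.00561 and 0.0397, and the other 5 genes cross it.

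Many extra copies of single factors had few or no reads in ovaries of either group. The 9 translation factor genes with too few counts to test were all such copies, namely eIF3d2, eIF3f2, eIF3g2, eIF4H2 and the cap-binding paralogs eIF4E3, eIF4E4, eIF4E5, eIF4E6 and eIF4E7. Over the 3 libraries of a group, eIF3d2, eIF3g2, eIF4E4 and eIF4H2 had 0 counts in mutant and 0 in control ovaries. A count of 0 over a group allows up to 3 counts, or 0.0430 CPM in mutant and 0.0417 CPM in control ovaries, and this limit covers counting error only.

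The rest of these copies had at most 19 counts over a group. eIF3f2 had 1 count in mutant and 1 in control ovaries, and eIF4E3, known for its role in fly spermatogenesis, had 0 in mutant and 2 in control ovaries. eIF4E6 had 3 counts in mutant and 7 in control ovaries, and eIF4E7 had 3 in mutant and 4 in control ovaries. The highest was eIF4E5, with 8, 8 and 3 counts in mutant replicates 1 to 3 and 3, 1 and 5 counts in control replicates 1 to 3, so that the groups overlapped. The markers of testis were as low, with dj, Mst84Da, ProtA, ProtB and sa at 0 in all 6 libraries and a summed level of at most 0.0391 CPM in mutant and 0.138 CPM in control libraries over 7 genes.

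The partners of these copies were abundant. eIF3d1, a subunit known in human cells to bind the cap itself, had 457, 462 and 448 CPM in mutant and 426, 428 and 449 CPM in control ovaries, and it encodes a protein of 560 residues, against 551 for eIF3d2. eIF3f1 was at 252, 262 and 259 CPM in mutant and 241, 230.5 and 243 CPM in control ovaries, and eIF3g1 at 195, 206 and 199.6 CPM in mutant and 193, 187 and 197 CPM in control ovaries. In none of the 3 pairs was the abundant copy called, and only for eIF3f1 did the groups not overlap (log2 fold change 0.11, SE 0.04, edgeR adjusted p = 0.0790). The gene structure differs within the eIF3g pair, since eIF3g1 on chromosome X has 2 exons and eIF3g2 on arm 3R (20408265 to 20409243) has 1.

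The eEF1alpha genes were the only pair among these in which both copies were tested, and they were very uneven. eEF1alpha2 (31738468 to 31743306 on the plus strand of 3R) encodes 462 residues, 1 fewer than the 463 of eEF1alpha1, and had 2.35, 1.33 and 0.58 CPM in mutant and 1.17, 2.12 and 1.62 CPM in control ovaries. It contributed 0.0092% ± 0.0056 of the summed level per kb of the pair in mutant and 0.0116% ± 0.0033 in control ovaries. Its log2 fold change of −0.18 had an SE of 0.46, so it was smaller than its error, and its sign turned without mutant replicate 3 or without control replicate 2. The muscle myosin gene Mhc had 46.5, 40.2 and 17.7 CPM in mutant and 19.5, 37.0 and 30.9 CPM in control ovaries, with the same order of libraries within each group as eEF1alpha2. Over the list of 5 muscle markers, Mhc, Mlc2, up and wupA had this order in mutant libraries and Mhc alone had it in control libraries. Mhc, Mlc2, up and wupA were each lowest in mutant replicate 3 and control replicate 1 of their groups, as eEF1alpha2 was. The summed level was 506 to 579 CPM in mutant and 567 to 592 CPM in control libraries. Most of this sum was Tm1, at 452, 477 and 447 CPM in mutant and 512, 489 and 498 CPM in control libraries, which did not follow the other markers. The full order of eEF1alpha2 in both groups was not particular to muscle. The neuron marker elav had it, at 4.65, 3.82 and 2.99 CPM in mutant and 2.37, 3.22 and 2.85 CPM in control libraries. So did the hemocyte marker Ppn, the follicle cell marker tj and the germline marker aub, while the other markers of their lists did not. The part of muscle RNA in the level of eEF1alpha2 was not tested.

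In the eIF4E family, eIF4E1 held 95.0% ± 0.19 of the summed level per kb in mutant and 95.4% ± 0.18 in control ovaries. Nearly all of the rest came from eIF4EHP, a cap-binding protein that does not bind eIF4G and represses translation of chosen mRNAs in the fly egg and embryo. Its share was 4.80%, 5.11% and 4.91% in mutant and 4.71%, 4.46% and 4.40% in control libraries, and the groups did not overlap. The level of eIF4EHP itself was not called, at 101, 111 and 107 CPM in mutant and 107, 102 and 101 CPM in control ovaries (log2 fold change 0.04, SE 0.05). The size of this share rests on the exon length used, since it was 0.916% in mutant and 0.836% in control ovaries with genomic length, and the count of eIF4EHP is uncertain, as it shares 447 exon bases with Syx1A on the same strand.

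The tested translation factor genes were shorter than the tested protein-coding genes at large. They had a median exon length of 1838 bases and a median span of 2406 bases, against 2196 and 2946 bases over the 7845 tested protein-coding genes, and a median longest protein of 433 residues against 479. A single exon was annotated for 2 of 44 (4.55%) and for 7.98% of tested protein-coding genes. The median coefficient of variation between libraries was 2.67% in mutant and 2.67% in control ovaries, against 5.05% in mutant and 4.76% in control ovaries over all tested genes, whose median level of 48.6 CPM was far below the 338 CPM of the translation factors. By chromosome arm, the called genes numbered 0 of 6 tested on 2L, 3 of 12 on 2R, 3 of 9 on 3L, 1 of 11 on 3R and 0 of 6 on X. Over all arms 14.5% of tested genes were called, and the share of all genes on each arm was not computed.

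Genes that act on these factors were read in the same fit, in which 14.5% of all tested genes were called, 8.31% higher and 6.2% lower. The lists below hold few genes each, and their shares were not tested against those of all genes. Of 21 tested regulators of initiation, 3 were higher and 1 was lower, with a median log2 fold change of −0.01. The largest called rise in the list was in crc, the fly ATF4 whose translation goes up when eIF2 is phosphorylated, at 461, 444 and 392 CPM in mutant and 352, 368 and 356 CPM in control ovaries (log2 fold change 0.27, SE 0.06, edgeR adjusted p = 0.0133). The poly(A)-binding protein gene pAbp was at 3562, 3636 and 3429.8 CPM in mutant and 3074, 3286 and 3227 CPM in control ovaries (0.15, SE 0.04, edgeR adjusted p = 0.0490), and snoRNA genes are listed within its span. The gene of its inhibitor Paip2 had the opposite direction, at 193, 191 and 197 CPM in mutant and 225, 229 and 243 CPM in control ovaries (−0.26, SE 0.04, edgeR adjusted p = 0.00307).

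The kinase gene S6k was higher by 0.13 on the log2 scale (SE 0.04, edgeR adjusted p = 0.0426), at 168, 172 and 172 CPM in mutant and 156, 159 and 154 CPM in control ovaries. Paip2 kept its call in each of the 6 fits that left out 1 library, at an adjusted p of 0.0156 or less. That of crc ended without control replicate 1 (0.0624) or 3 (0.0554), that of pAbp held only without mutant replicate 3, with 0.0790 to 0.225 in the other fits, and that of S6k was lost in each of the 6 (0.0620 to 0.146). A pair of genes that act directly on eIF4E1, named after their values were seen, had large differences that were not called. Thor, the 4E-BP that blocks eIF4E1, was at 53.8, 36.6 and 42.6 CPM in mutant and 59.7, 64.8 and 81.7 CPM in control ovaries (−0.63, SE 0.19, edgeR adjusted p = 0.0978). Lk6, the kinase of eIF4E1, was at 551, 557 and 552 CPM in mutant and 298, 463 and 289 CPM in control ovaries (0.66, SE 0.21, edgeR adjusted p = 0.114), with control replicate 2 nearest to the mutant libraries. For both genes the groups did not overlap.

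Of 9 tested genes of ribosome rescue and recycling, 2 were higher, 0 lower, and the median log2 fold change was 0.06. pelo, whose protein frees stalled ribosomes and resembles eRF1, was at 122, 123 and 118 CPM in mutant and 103, 102 and 102 CPM in control ovaries (log2 fold change 0.25, SE 0.04, edgeR adjusted p = 0.00289). pix, the fly ABCE1 that splits ribosomes for the next round, was at 445, 434 and 407 CPM in mutant and 367, 377 and 369 CPM in control ovaries (0.21, SE 0.04, edgeR adjusted p = 0.0122). For both genes the mutant libraries lay above all control libraries. The call of pelo held in each fit that left out 1 library, at 0.0169 or less, and that of pix ended without control replicate 1 (0.0633).

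Of 8 tested enzymes that modify eEF2 and eEF5 or other factors, 2 were higher, 0 lower, and the median log2 fold change was 0.12. Dph5, which takes part in making the diphthamide of eEF2, was at 192, 187 and 188 CPM in mutant and 168, 165 and 170.0 CPM in control ovaries (log2 fold change 0.17, SE 0.04, edgeR adjusted p = 0.0131). nero, the hydroxylase that completes the hypusine of eEF5, was at 94.5, 98.0 and 100.4 CPM in mutant and 89.0, 84.3 and 83.3 CPM in control ovaries (0.19, SE 0.04, edgeR adjusted p = 0.0196). Without control replicate 1 the adjusted p of Dph5 was 0.0598. That of nero was 0.0684 without control replicate 3 and 0.0595 without control replicate 2, and leaving out mutant replicate 2 gave 0.0566.

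Of 9 tested mitochondrial translation factors, which serve another ribosome, 1 was higher, 0 lower, and the median log2 fold change was 0.01. That gene, mEFTu2, a mitochondrial counterpart of eEF1alpha, was at 56.4, 53.9 and 54.9 CPM in mutant and 47.6, 47.6 and 47.2 CPM in control ovaries (log2 fold change 0.21, SE 0.04, edgeR adjusted p = 0.0119, and 0.0524 without control replicate 1). In these lists cup, waw and HemK2 had 0 counts in all 6 libraries, and each overlaps another gene on the same strand, so nothing on their expression can be read from it.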

How the data were processed

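Poly(A) RNA of dissected ovaries was sequenced from directional libraries, per the labels' protocols. The authors deposited 1 table of unnormalized counts of reads per gene for every library. TopHat2, HTSeq and DESeq2 are named with the builds dm6 and BDGP6, per the submitters' processing notes, with no version. Neither the strand setting nor the annotation release is stated. Where genes overlap on the same strand, their counts cannot be told apart or may be missing.

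Symbols came from an Ensembl BDGP6 annotation, by ID for 17253 genes and by position for 216 (reciprocal overlap of at least 90% on the same strand), and 90 stayed without one. Deposited starts were 1 below those of the annotation for 17097 genes, so 1 was added to print coordinates. Genes were kept with filterByExpr (minimum count 10), leaving 8110 and setting aside 9449. Counts were scaled with TMM factors (0.986 to 1.01) and tested with edgeR 4.0.16 in R 4.3.3 (robust quasi-likelihood, mutant against control, no covariates, Benjamini-Hochberg adjusted p under 0.05). Log2 fold changes are mutant over control. CPM use the TMM factors, and CPM per kb divides by the merged exon length. The common biological coefficient of variation was 6.63%. Replicates of a group differed by more than sampling noise (chi-square per degree of freedom 6.17 to 15.8). No molecular identifiers are described, so counting limits cover counting error only.

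The genes named were the called members, members of paralog families, the most abundant of each subcomplex, the 3 largest and 3 smallest fold changes, up to 4 uncalled members without overlap, and called genes of the related lists. Further subunits are named to complete their subcomplex and were added after their values were seen. The members and lists were chosen with earlier results of these data known. The lists of related genes matched 22 of 24 symbols written for regulators, 9 of 16 for rescue and recycling, 10 of 12 for mitochondrial factors and 9 of 20 for modifying enzymes, synonyms included. Marker lists for 8 cell types were summed. Summed levels were 506 to 579 CPM in mutant and 567 to 592 CPM in control libraries for muscle, 88.1 to 130.2 CPM in mutant and 110.9 to 120.3 CPM in control libraries for hemocytes, 3.39 to 4.89 CPM in mutant and 2.56 to 3.40 CPM in control libraries for neurons, and at most 0.196 CPM in mutant and 1.29 CPM in control libraries for fat body. For gut they were 0, 73.6 and 2.86 CPM in mutant and 0.113, 0 and 0 CPM in control libraries, so mutant replicate 2 stood apart. Tm1 made up most of the muscle sum. Most of the hemocyte sum was srp, at 110, 106 and 81.8 CPM in mutant and 107, 101 and 112 CPM in control libraries. The hemocyte markers Hml and NimC1 were at no more than 0.51 CPM in any library and were not tested. Alternatives were DESeq2 1.42.0, voom of limma 3.58.1, scaling by relative log expression or by library totals alone, 2 other filters, a replicate block, each library left out, both libraries numbered 2 left out, and genomic length. The scripts were tested on simulated counts.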

Additional observations from a re-analysis of the deposited data

How the results depend on the processing

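The 7 called translation factor genes became 12 with DESeq2 (11 higher and 1 lower), 2 with a replicate block, 2 to 10 with 1 library left out and 1 (eIF2A) without both libraries numbered 2. With the block eIF2A and eEF1gamma were called, while eIF3e had an adjusted p of 0.0576, eIF5B 0.0723, eIF3k 0.0785, eIF6 0.0786 and eEF1beta 0.0909. Those called higher numbered 2 with the block, 2 to 10 with 1 library left out and 1 without both libraries numbered 2. Those called lower numbered 1 with DESeq2 (eIF4E1) and 0 to 1 with 1 library left out, the 1 being eIF4G2 without control replicate 3. Calls over all genes, 1177 with 6 libraries, were 728 with the block, 566 to 1475 with 1 library left out and 516 without both libraries numbered 2. Related genes called, 9 with 6 libraries, were 3 to 10 with 1 library left out and 3 without both libraries numbered 2. Fits with fewer libraries have fewer degrees of freedom, and beyond that the cause was not tested. The replicate numbers were not treated as pairs, because same-numbered libraries deviated from their group means with correlations of −0.23, −0.26 and −0.12.

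The other scalings, filters and limma-voom called 6 to 9 translation factor genes. Over 25 named genes and 14 alternatives each, 288 of 350 values kept direction and side of the threshold, 38 lost it, 13 passed it and 11 changed sign. Only the 7 called genes could lose it, so all 38 were theirs. Of 14 alternatives, the call held in 14 for eIF2A, 13 for eEF1gamma, 8 for eIF3e, 8 for eEF1beta, 7 for eIF5B, 7 for eIF6 and 3 for eIF3k. Of genes not called, eEF1alpha2 ran between −0.76 and 0.19 with 1 library left out (0.10 without both numbered 2), eIF2Bdelta between −0.031 and 0.090, eIF2beta between −0.0043 and 0.049 (−0.028 without both), eIF3b between −0.020 and 0.015 (0.0044 without both), and eIF4EHP was −0.0017 without both. The median level per kb of the tested genes was 187 with exon and 147 with genomic length, with a rank correlation of 0.927 between them. Depth limits what can be said of the 9 untested copies, of which 4 had 0 counts in all 6 libraries.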
